A study of Gallus gallus with 8 samples.

Results

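The genes described here are 9 genes of programmed cell death and cell survival: the death receptor FAS, the initiator caspases CASP8 and CASP9, the pore-forming BAK1, the survival proteins BCL2, BCL2L1 and MCL1, the caspase inhibitor BIRC8, and the mitochondrial nuclease ENDOG. All probe sets that the array annotation assigns to one of these symbols were taken, which gave 18 probe sets of the 38535 on the array, for 9 of its 13009 gene symbols. A test required a log2 level of at least 4 on at least 2 arrays, and 14 of the 18, with at least 1 for each of the 9 genes, passed this filter, as did 12725 of all probe sets. Levels are the authors' log2 values, and a change is a difference of group means on that scale. Where a gene has several probe sets, they are told apart by the end of their name (S1_at, S2_at).

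RNA of chicken samples given as F1 oocytes, collected 24 h before ovulation, was measured on 8 Affymetrix arrays. The DPF+ and DPF- hens (2 arrays each) come from a pair of divergently selected lines, and the HG+ and HG- hens (2 arrays each) come from a single line, and fertility is the trait the design compares between + and - in both sources. The labels do not say which of + and - is the more fertile, so a signed change between them gives no direction of fertility. Light lasted 14 h a day and dark 10 h, and the amount of RNA in the labels ran from 8.8 to 13.3 µg. The labels call the arrays of a group biological replicates but do not say whether each holds 1 bird or a pool. The p values rest on the spread between arrays within the 4 groups, and whether that is a spread between birds is not known.

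In apoptosis, a death receptor such as FAS is engaged by its ligand and recruits CASP8 through an adaptor, and CASP8 then activates the executioner caspases. In the mitochondrial route BAK1 opens the outer membrane unless BCL2, BCL2L1 or MCL1 hold it back, cytochrome c leaves the mitochondrion, and CASP9 is activated on the APAF1 scaffold. Inhibitor of apoptosis proteins such as BIRC8, whose entry in the reference gene table carries the synonyms XIAP and BIRC4, bind active caspases, and ENDOG is a nuclease of the mitochondrion that can cut DNA in the nucleus. Most of these roles were worked out in mammals. In the hen ovary, granulosa cells of small follicles that are not selected die by apoptosis, whereas those of the large yolk-filled follicles are resistant to it.

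The samples carried strong granulosa cell signal. Of 16 granulosa markers 15 passed the filter, and of 15 oocyte markers on the array 10 did, among them DAZL with a mean of 7.38, while ZP1, DDX4, GDF9 and BMP15 were below 3 on average. Markers of both oocyte and follicle cells were thus present, and in such bulk samples fewer cells of a type and less RNA per cell cannot be told apart. No leukocyte marker but CD74 passed, of 11 on the array, and 0 of 5 red blood cell markers did. The DPF+ arrays differed from each other more than the arrays of any other group. The SD of the difference between the arrays of a group, over all tested probe sets, was 0.746 in DPF+ and 0.456 in DPF-, against 0.276 in HG+ and 0.282 in HG-. The difference between 3' and 5' probe sets of control transcripts, a measure of RNA integrity, averaged 1.64 ± 0.25 in DPF and 1.12 ± 0.06 in HG (log2, SD, n = 4 each, exact two-sided permutation p = 0.0286, the smallest the design allows).

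**Figure D1:**
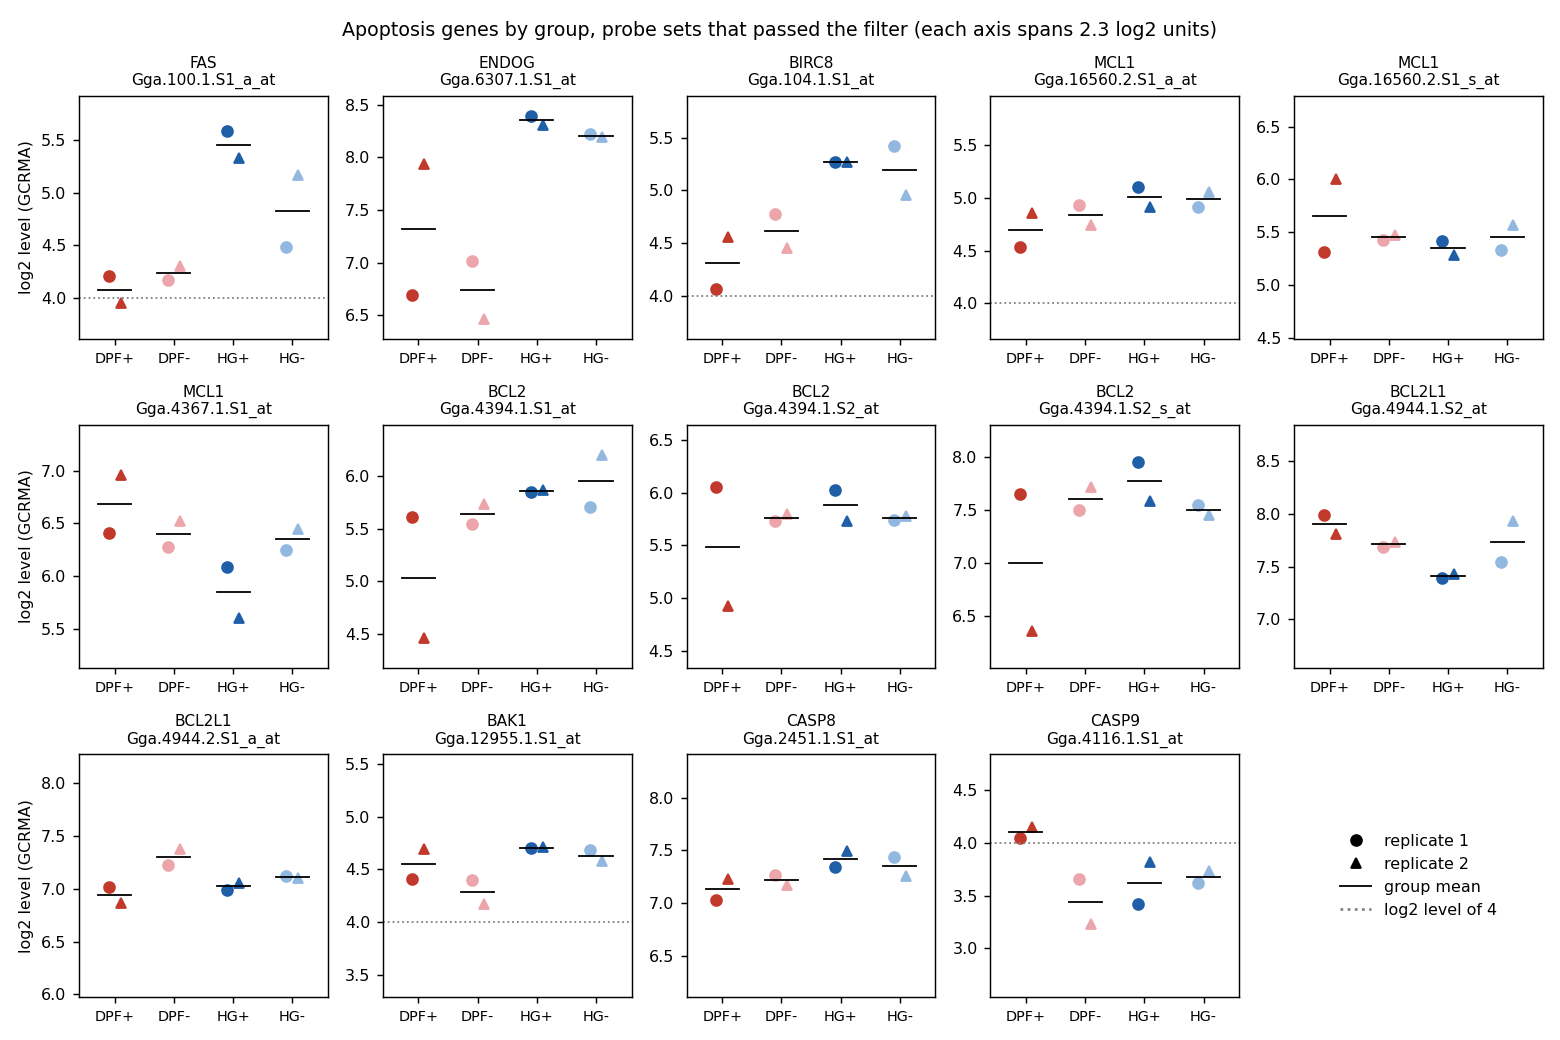
Log2 level of each of the 14 tested probe sets on each of the 8 arrays, by group, with circles for replicate 1, triangles for replicate 2, a bar for the group mean and a dotted line at the log2 level of 4 where it lies in range. The DPF arrays of FAS, ENDOG and BIRC8 lie below all HG arrays, and DPF+ replicate 2 lies below the other arrays in each BCL2 panel.

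The hens of the divergent lines were compared with those of the single line, a comparison of source that neither fertility contrast gives. FAS, ENDOG and BIRC8 were lower in DPF than in HG, and the other 6 genes did not pass. A call beside a gene that did not pass is no test of a difference between them. These 3 calls are 21.4% of the 14 probe sets, against a background of 9.00% of all tested probe sets called as lower, 3.48% called as higher and 12.5% called in all. The genes were chosen with earlier results of these data known, so the shares are no test of an excess. In the same 3 probe sets the DPF and HG arrays did not overlap, and 24.8% of all tested probe sets had no overlap between DPF and HG. At an unadjusted p under 5% the same count was 3 of 14, with 29.7% among all. The median change of the 14 probe sets was -0.22, and that of all tested probe sets -0.08.

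ENDOG showed the largest of the 3 changes. Its level was 6.69 and 7.94 in DPF+, 7.02 and 6.47 in DPF-, 8.39 and 8.31 in HG+, and 8.22 and 8.19 in HG-. The HG arrays were within a narrow band and the DPF arrays were spread out beneath it, with DPF+ replicate 2 nearest to it. The mean was 7.03 ± 0.65 in DPF and 8.28 ± 0.09 in HG (SD, n = 4 each), a log2 change of -1.25 ± 0.28 (SE) or a DPF to HG ratio of 0.421 (limma adjusted p = 0.0283). The HG+ arrays lay just above the HG- arrays and the DPF+ arrays overlapped the DPF- arrays.

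FAS had DPF levels close to the filter limit. The tested probe set read 4.21 and 3.95 in DPF+, 4.17 and 4.30 in DPF-, 5.58 and 5.33 in HG+, and 4.48 and 5.17 in HG-. No DPF array reached the lowest HG array, though the gap between DPF- replicate 2 and HG- replicate 1 was small. The mean was 4.16 ± 0.15 in DPF and 5.14 ± 0.47 in HG, a log2 change of -0.98 ± 0.19 and a ratio of 0.506 (limma adjusted p = 0.0196). The other FAS probe set lay between 2.61 and 2.94 on all arrays and was not tested.

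BIRC8 followed the same order, also with DPF levels near the filter limit. Its level was 4.07 and 4.56 in DPF+, 4.78 and 4.45 in DPF-, 5.27 and 5.27 in HG+, and 5.42 and 4.96 in HG-. Every DPF array was below every HG array, while the groups within each source overlapped. The mean was 4.47 ± 0.30 in DPF and 5.23 ± 0.19 in HG, a log2 change of -0.77 ± 0.19 and a ratio of 0.588 (limma adjusted p = 0.0375).

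The 3 calls did not hold under every setting. Without the filter all 3 were lost (limma adjusted p = 0.0607 for FAS, 0.104 for ENDOG and 0.0900 for BIRC8), and BIRC8 was also lost with quantile normalization (0.0562). ENDOG was lost without DPF- replicate 2 (0.106), HG+ replicate 1 (0.102), HG+ replicate 2 (0.108), HG- replicate 1 (0.105) or HG- replicate 2 (0.115). FAS was lost without DPF- replicate 1 (0.0546), DPF- replicate 2 (0.0632), HG+ replicate 1 (0.0854), HG+ replicate 2 (0.0776) or HG- replicate 2 (0.0827), and BIRC8 without any array of those 3 groups (0.0591 and 0.124 for DPF- replicates 1 and 2, 0.127 and 0.143 for HG+, 0.143 and 0.0893 for HG-). Leaving out a DPF+ array, which keeps a single DPF+ array, turned no sign of the 3. The changes were -1.047 (FAS), -0.935 (ENDOG) and -0.642 (BIRC8) without DPF+ replicate 1. They were -0.917, -1.56 and -0.887 without DPF+ replicate 2.

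Other measures moved with the same division of the arrays. The control transcripts had the larger 3' to 5' difference in DPF given above. The log2 of the summed level of the 10 theca and stroma markers, of which 2 passed the filter, ran from 6.68 to 7.06 in DPF+, from 6.48 to 6.68 in DPF-, from 9.06 to 9.10 in HG+ and from 8.34 to 8.75 in HG-. COL1A2, a fibrillar collagen chain, read 5.97 and 4.68 in DPF+, 4.50 and 4.08 in DPF-, 8.93 and 8.87 in HG+, and 8.01 and 8.51 in HG-, and carried the difference in that sum. PDGFRB, a growth factor receptor and the only other one to pass, had the opposite direction, with 4.08 and 4.70 in DPF+, 4.84 and 4.30 in DPF-, 3.64 and 3.89 in HG+, and 4.04 and 4.03 in HG-. The theca enzyme CYP17A1 averaged 2.41. Of 7 endothelial markers only CDH5, an adhesion protein of vessels, passed, and it did so only through HG arrays, with 2.55 and 2.75 in DPF+, 2.57 and 2.61 in DPF-, 4.42 and 3.49 in HG+, and 3.92 and 4.29 in HG-. The log2 of the summed endothelial markers overlapped between the sources, at 5.80 to 6.08 in DPF and 5.90 to 6.10 in HG. The part of RNA integrity, stroma and endothelium in the results was not tested, and line, housing and array processing cannot be told apart from source.

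**Figure D2:**
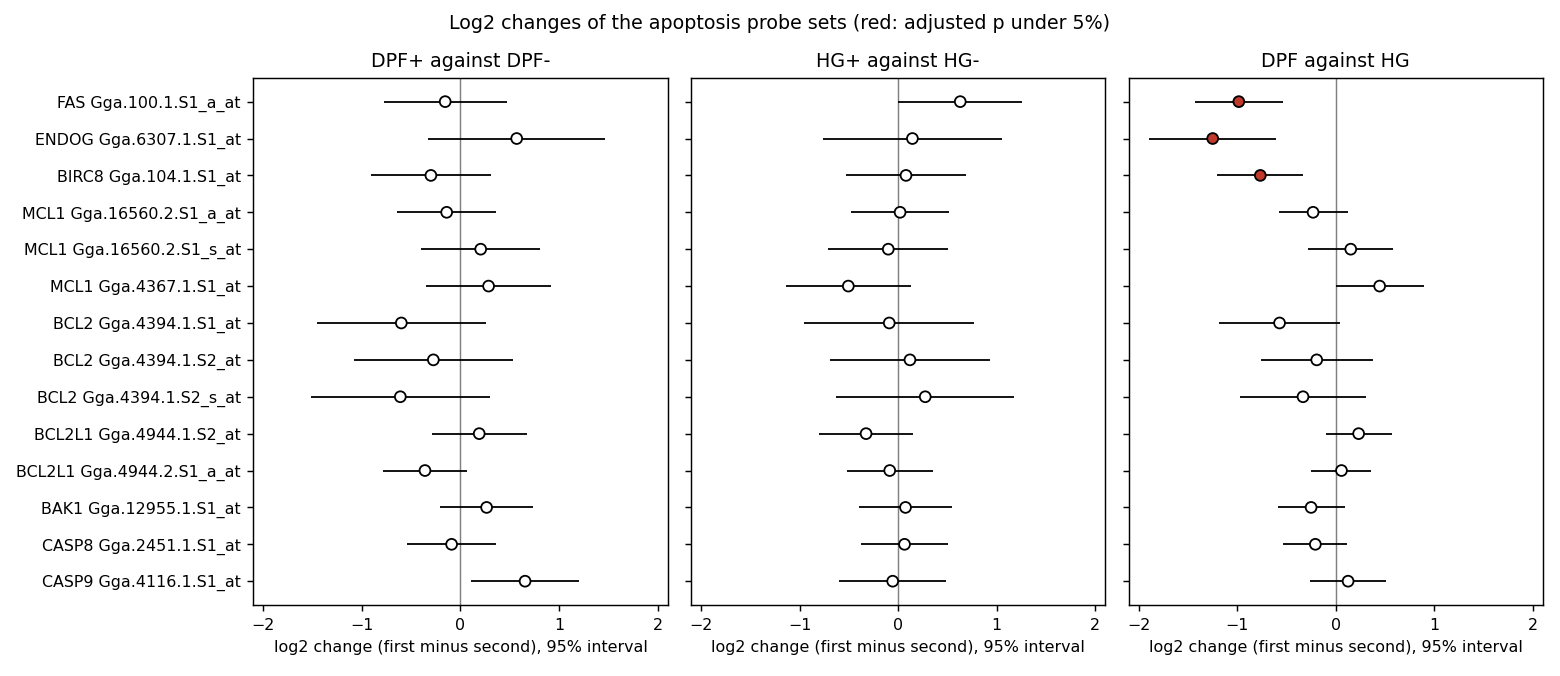
Log2 change (x axis) with its 95% interval from the limma fit for the 14 tested probe sets, in DPF+ against DPF-, HG+ against HG- and DPF against HG, where positive means higher in the group named first. The only filled points are FAS, ENDOG and BIRC8 in DPF against HG, at -0.98, -1.25 and -0.77.

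The remaining members had smaller differences between sources. CASP8, the initiator caspase of the death receptor route, had 7.03 and 7.23 in DPF+, 7.27 and 7.17 in DPF-, 7.34 and 7.49 in HG+, and 7.44 and 7.26 in HG-. It spanned only 0.46 over the 8 arrays. Its DPF against HG change was -0.21, with a 95% interval from -0.53 to 0.11 (limma adjusted p = 0.352). BAK1 had 4.41 and 4.69 in DPF+, 4.40 and 4.17 in DPF-, 4.70 and 4.71 in HG+, and 4.68 and 4.58 in HG-. The highest DPF array thus lay within the HG range, and the change was -0.25 (interval from -0.59 to 0.09, limma adjusted p = 0.292). The second BAK1 probe set stayed under 4 on every array, at 3.07 to 3.27 in DPF and 3.35 to 3.57 in HG, and was not tested. CASP9 averaged under 4 in both sources, so no change between them is given.

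The survival genes BCL2 and BCL2L1 have 3 probe sets each and MCL1 has 4. Of the 4 for MCL1, a short-lived survival protein, 1 lay between 2.40 and 2.44 on all arrays. The brightest had 6.41 and 6.96 in DPF+, 6.28 and 6.52 in DPF-, 6.09 and 5.60 in HG+, and 6.25 and 6.45 in HG-. DPF and HG overlapped, at a mean of 6.54 ± 0.30 in DPF and 6.10 ± 0.36 in HG (change 0.45, limma adjusted p = 0.169). The other tested MCL1 probe sets had opposite signs, since the S1_s_at probe set had a difference of 0.15 and the S1_a_at probe set one of -0.23 between the sources. For BCL2L1, which encodes Bcl-x, the S2_at probe set averaged 7.81 ± 0.13 in DPF and 7.57 ± 0.25 in HG (change 0.23, limma adjusted p = 0.328). Its other tested probe set had a difference of 0.06 with an interval from -0.25 to 0.36, and the remaining one stayed at 2.27 to 2.42.

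BCL2, the founding survival gene of the family, was marked by 1 array. The S2_s_at probe set read 7.65 and 6.35 in DPF+, 7.50 and 7.72 in DPF-, 7.96 and 7.59 in HG+, and 7.55 and 7.45 in HG-. The S1_at probe set read 5.61 and 4.46 in DPF+, 5.54 and 5.73 in DPF-, 5.85 and 5.87 in HG+, and 5.70 and 6.20 in HG-. The S2_at probe set read 6.05 and 4.93 in DPF+, 5.73 and 5.80 in DPF-, 6.03 and 5.73 in HG+, and 5.74 and 5.78 in HG-. In all 3 the lowest value was that of DPF+ replicate 2, and DPF+ replicate 1 was within the range of the other arrays or just beyond it. The difference between the DPF+ arrays was -1.30, -1.15 and -1.12, and 7.91%, 12.2% and 13.5% of all tested probe sets differed between the DPF+ arrays by as much, so that BCL2 is among the more discordant but not the most discordant. The probe sets share a transcript and are not independent. Between the sources the S1_at difference was -0.57 and failed the test (limma adjusted p = 0.193). The size of the BCL2 changes between DPF and HG hung on which DPF+ array was kept. With replicate 2 as the only DPF+ array, they were -0.857 (S1_at), -0.472 (S2_at) and -0.657 (S2_s_at). With replicate 1 kept instead, they shrank to -0.282 and -0.007 for S1_at and S2_s_at, and S2_at turned to 0.087. The brightest MCL1 probe set stayed higher in DPF either way, at 0.583 and 0.308.

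ENDOG and BAK1 had the opposite sign to BCL2 on DPF+ replicate 2. ENDOG differed by 1.25 between the DPF+ arrays, a size reached by 9.20% of tested probe sets, and BAK1 by 0.28, reached by 71.7%. On the DPF- arrays ENDOG and BAK1 had their lower value in replicate 2, by -0.55 and -0.23. The summed granulosa markers, as a log2 value, were at 14.63 on DPF+ replicate 2 and at 15.18 on DPF+ replicate 1, with 14.94 and 15.19 in DPF-, 15.14 and 14.95 in HG+, and 14.99 and 15.15 in HG-. The summed oocyte markers were at 9.90 on DPF+ replicate 2 and at 9.24 on DPF+ replicate 1, with 9.88 and 9.26 in DPF-, 9.52 and 9.78 in HG+, and 9.68 and 9.56 in HG-. DPF- replicate 1 thus came close to DPF+ replicate 2. Between these arrays the markers differed in direction. BUB1B was at 8.77 on DPF- replicate 1 and 8.46 on DPF+ replicate 2, and DAZL was at 7.78 and 8.15. BUB1B had the highest mean of the oocyte markers, 8.36, and so weighs most in their sum. The part of these cell type signals in the BCL2 and ENDOG values was not tested.

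**Figure D3:**
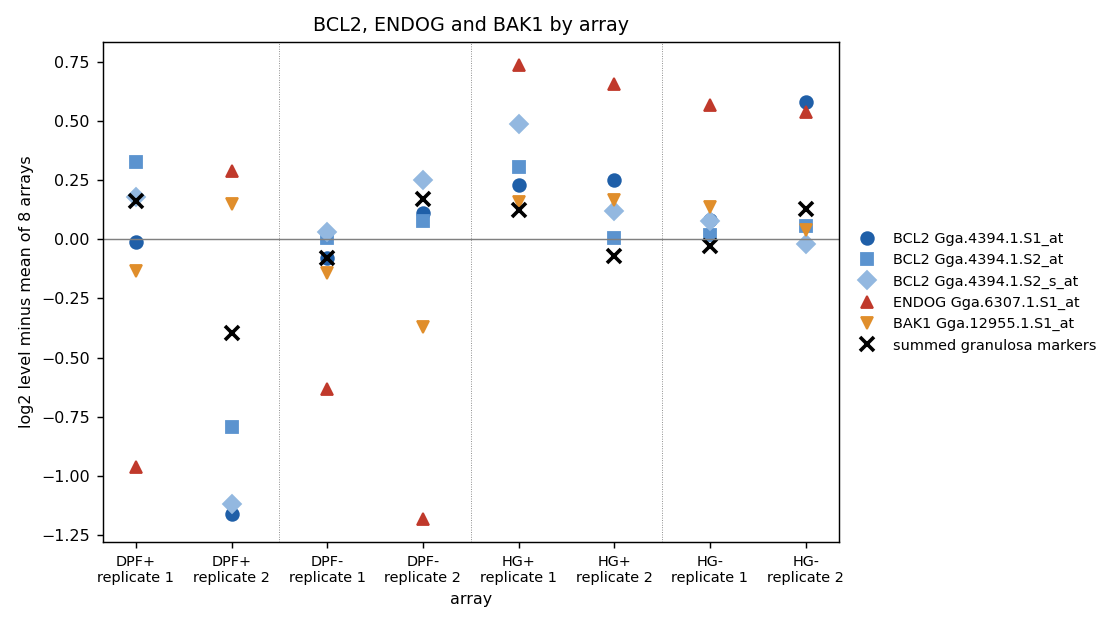
Log2 level minus the mean of the 8 arrays (y axis) for the 3 BCL2 probe sets, ENDOG, BAK1 and the log2 of the summed granulosa markers on each array (x axis). The BCL2 points and the granulosa sum are lowest on DPF+ replicate 2, where ENDOG and BAK1 lie above the other DPF arrays.

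The contrast of DPF+ with DPF- asks what separates divergently selected lines. None of the 14 probe sets passed (0 called, and 0% of all tested probe sets were called), and the smallest limma adjusted p was 0.725, for CASP9, the initiator caspase of the mitochondrial route. CASP9 read 4.05 and 4.15 in DPF+, 3.66 and 3.23 in DPF-, 3.42 and 3.82 in HG+, and 3.62 and 3.73 in HG-. The DPF+ arrays were the only ones above 4, so CASP9 passed the filter only through the group where it is high, and its test in this contrast is no support for a difference. Counted from the limit of 4, DPF+ was higher by 0.10 or more. Nothing is read from the count of 1 in 14 with an unadjusted p under 5%, which was CASP9, beside 6.14% of all tested probe sets. The 3' to 5' difference of the control transcripts moved with this contrast too, at 1.82 and 1.86 in DPF+ and 1.54 and 1.33 in DPF-, and its part in the results was not tested.

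The DPF+ and DPF- arrays did not overlap in 4 of the 14 probe sets, or 28.6%, against 23.3% of all tested probe sets, a share near the background. These were CASP9, for which the filter required it, BAK1 (change 0.27) and both tested probe sets of BCL2L1. The BCL2L1 probe sets had opposite signs. The S2_at probe set read 7.99 and 7.81 in DPF+ and 7.69 and 7.73 in DPF- (change 0.19, interval from -0.29 to 0.67), whereas the S1_a_at probe set read 7.02 and 6.87 in DPF+ and 7.23 and 7.38 in DPF- (change -0.36, interval from -0.79 to 0.07). The direction of BCL2L1 between these lines thus depends on the probe set.

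For BCL2 the fitted changes of the 3 probe sets were -0.60, -0.28 and -0.61, and for ENDOG 0.57. DPF+ replicate 2 decided each of them. Without that array they were -0.03 (S1_at), 0.29 (S2_at) and 0.04 (S2_s_at) for BCL2 and -0.06 for ENDOG. Without DPF+ replicate 1, which leaves replicate 2 as the sole DPF+ array, they were -1.18, -0.84 and -1.26 for BCL2 and 1.20 for ENDOG. A lone array gives no spread of its own for DPF+, so only the sizes are given. Between DPF+ and DPF- the difference was -0.16 for FAS (interval from -0.78 to 0.47), -0.30 for BIRC8 (from -0.91 to 0.31) and -0.09 for CASP8 (from -0.54 to 0.36). The MCL1 changes were -0.14, 0.21 and 0.29, of which the first was 0.03 without DPF+ replicate 1 and the others were -0.14 and 0.01 without DPF+ replicate 2.

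The contrast of HG+ with HG- asks the same of fertility inside one line. None of the 14 probe sets passed, as 0% of all did, and each had a limma adjusted p of 1. The fit takes a single spread per probe set from all 4 groups, so these p values and intervals also carry the wider spread of the DPF arrays. Those of DPF+ against DPF- likewise carry the spread of the HG arrays. For ENDOG the SE was 0.39 here, with an SD of 0.057 in HG+ and 0.021 in HG-. A fit to the 4 HG arrays alone also called none. FAS had the smallest p, with 5.58 and 5.33 in HG+ against 4.48 and 5.17 in HG-. Both HG+ arrays were above both HG- arrays, and HG- replicate 1 lay well below the other 3. The change was 0.63 with an interval from 0.00 to 1.26, and it was 0.29 without HG- replicate 1 and 0.98 without HG- replicate 2. FAS was the only one of the 14 with an unadjusted p under 5%, a level that 0.354% of all tested probe sets reached, which is 45 of 12725, and it ranked last of those 45. Between DPF+ and DPF- the FAS difference was -0.16, and the difference of the 2 changes was -0.79 ± 0.38 (SE, limma adjusted p = 0.999).

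The HG groups did not overlap in 7 of the 14 probe sets (50%), against 25.1% of all tested probe sets, and the probe sets of a gene are not independent. The genes were also chosen with earlier results of these data known, so these shares are no test of an excess. Higher in HG+ in this sense were FAS, ENDOG (change 0.15), BCL2 through S2_s_at (0.28) and BAK1 (0.08). Lower were MCL1 through its brightest probe set (-0.51) and both tested probe sets of BCL2L1 (-0.33 and -0.09). MCL1 read 6.09 and 5.60 in HG+ and 6.25 and 6.45 in HG-, and its change was -0.26 without HG+ replicate 2. BCL2L1 read 7.39 and 7.43 in HG+ and 7.54 and 7.93 in HG- with S2_at, a change of -0.13 without HG- replicate 2 and -0.52 without HG- replicate 1. The remaining changes lay between -0.10 for MCL1 through S1_s_at and 0.12 for BCL2 through S2_at. The control transcripts also differed slightly, with a 3' to 5' difference of 1.15 and 1.17 in HG+ and 1.10 and 1.04 in HG-, and the part of this in the results was not tested.

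No member passed the test of whether the DPF and the HG contrast differ. The difference of the changes passed for 0 of the 14 probe sets and 0% of all. CASP9, which passed the filter only through DPF+, is left aside here. Of the others the smallest unadjusted limma p values were 0.0752 for MCL1 through its brightest probe set and 0.0757 for FAS. The differences of the changes were 0.79 and -0.79, each with a limma adjusted p of 0.999. None of the 14 had an unadjusted p under 5% for this difference, against 2.86% of all tested probe sets.

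With each gene taken by its brightest probe set, both HG means lay above both DPF means for 5 of the 9 genes. The same held for BCL2 through S1_at and MCL1 through S1_a_at, but not through the brightest probe sets of these genes. The share of all tested probe sets with this order was not counted, so nothing is read from the 5. Of all tested probe sets 41.6% had a positive DPF against HG change. ENDOG and BAK1 ran HG+, HG-, DPF+, DPF- from high to low, and FAS, BIRC8 and CASP8 ran HG+, HG-, DPF-, DPF+. Neighbours in that order without overlap were HG- and DPF- for FAS and BIRC8, HG- and DPF+ for ENDOG, HG+ and HG- for FAS, ENDOG and BAK1, and DPF+ and DPF- for BAK1. For CASP8 every pair of neighbours overlapped. CASP9 was highest in DPF+ and lowest in DPF-, and MCL1 through its brightest probe set was highest in DPF+ and lowest in HG+.

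ENDOG had the widest range over the 8 arrays, 1.92, when each member is taken by its brightest probe set. The 5 probe sets most like it were those of ZMYM2 (Pearson r = 0.992, Spearman rho = 0.95 over 8 arrays), SNX30 (r = 0.989, rho = 0.88), SLC7A6OS (r = 0.985, rho = 0.86), IDH2 (r = 0.985, rho = 0.83) and PRDM15 (r = 0.984, rho = 0.90). They were chosen for this likeness out of all tested probe sets, so no test applies, and the arrays fall into the DPF and HG sources. With the mean of each source taken off, r was between 0.95 and 0.99. ZMYM2, a zinc finger protein, read 5.57 and 6.52 in DPF+, 5.87 and 5.63 in DPF-, 6.92 and 6.83 in HG+, and 6.73 and 6.82 in HG-. Among the members BAK1 was nearest to ENDOG (r = 0.94, rho = 0.88).

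The pathway around these genes was read from a list of 95 symbols, of which 77 genes were on the array, 9 of them the members. Of the 68 others 46 passed the filter. Among those that did not were the adaptors FADD and TRADD, which connect death receptors to caspases. CFLAR, listed with the adaptors, and the BH3 gene PMAIP1, an antagonist of survival proteins, did not pass either. Between the sources 3 of the 46 were higher and 1 lower in DPF (8.7% called, against 12.5% of all tested probe sets), with a median change of -0.08.

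Of the 4 other listed receptors and ligands that passed the filter, 2 were called, both higher in DPF, the opposite direction to FAS. Of all tested probe sets 3.48% were called as higher and 12.5% in all, and nothing is read from a count among 4 genes. Of the 4 changes 1 was negative (-0.11). TNFSF10, the TRAIL ligand, read 7.79 and 7.68 in DPF+, 7.62 and 7.53 in DPF-, 6.47 and 6.44 in HG+, and 7.19 and 6.17 in HG-. All DPF arrays were above all HG arrays, and the change was 1.09 ± 0.22 (limma adjusted p = 0.0236). Of its 2 other tested probe sets, 1 had a difference of 0.52 (limma adjusted p = 0.0933) and 1 of -0.06 (0.847). TNFRSF1B, a receptor for tumour necrosis factor, read 5.58 and 5.71 in DPF+, 4.96 and 5.04 in DPF-, 4.78 and 4.91 in HG+, and 4.84 and 4.42 in HG- (change 0.59 ± 0.15, limma adjusted p = 0.0461). It was highest in DPF+, above DPF- by 0.65 (limma adjusted p = 0.688).

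In the IAP family, to which BIRC8 belongs, 1 of the 4 other genes that passed the filter was called, as lower in DPF. Of all tested probe sets 9.00% were called as lower, and nothing is read from a count among 4 genes. All 4 changes were negative, from -0.71 to -0.08, while 41.6% of all tested probe sets had a positive change and the median of all was -0.08. BIRC6, a giant member of the family, averaged 6.84 ± 0.17 in DPF and 7.55 ± 0.11 in HG, a change of -0.71 ± 0.15 (limma adjusted p = 0.0251). Its other probe set reached 4 only on HG arrays, and its test is no support. BIRC5, which acts in cell division, had -0.63 (limma adjusted p = 0.176), BIRC7 a fitted -0.52 (0.169, with a DPF mean under 4) and BIRC2 -0.08 (0.721). The other tested probe set of BIRC2 read 4.11 and 4.16 in DPF+, 4.01 and 3.98 in DPF-, 3.68 and 3.89 in HG+, and 4.19 and 3.92 in HG-, without the lower DPF level. FOXO3, a transcription factor that can induce death genes, averaged 6.25 ± 0.17 in DPF and 5.53 ± 0.13 in HG, a change of 0.72 ± 0.15 (limma adjusted p = 0.0253). These 4 calls, like those of the members, were lost without the filter (limma adjusted p of 0.0844 for TNFSF10, 0.0593 for BIRC6, 0.0549 for FOXO3 and 0.0766 for TNFRSF1B). BIRC6, FOXO3 and TNFRSF1B were lost without any 1 array of DPF-, HG+ or HG-, with limma adjusted p up to 0.131, 0.124 and 0.197. TNFSF10 was lost without any of those except HG- replicate 1 (up to 0.101).

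**Figure D4:**
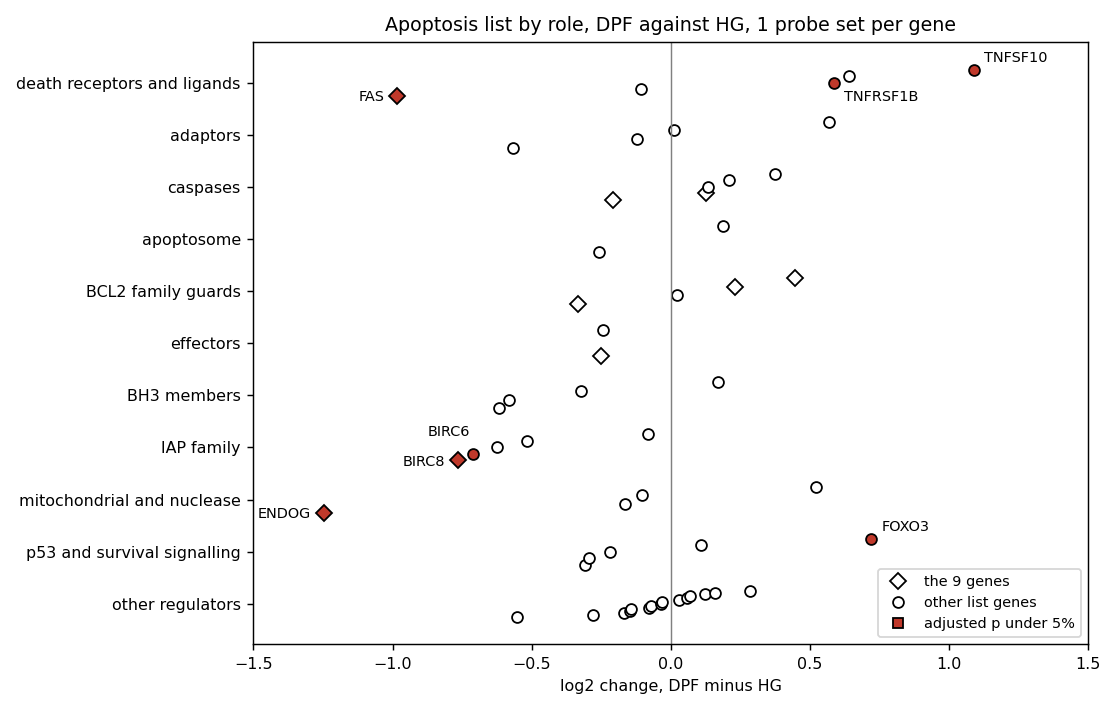
Log2 change, DPF minus HG (x axis), of the 9 genes (diamonds) and the 46 other apoptosis genes (circles) that passed the filter, by role, with 1 probe set per gene and filled points where the adjusted p was under 5%. FAS, BIRC8, BIRC6 and ENDOG are filled on the negative side and TNFRSF1B, FOXO3 and TNFSF10 on the positive side.

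Within the fertility contrasts none of the 46 passed. In DPF+ against DPF- their median was 0.08, with 29 positive and 17 negative changes, and the median of all tested probe sets was 0.02. The genes with the smallest p were TNFRSF1B (change 0.65), BIRC2 (-0.56) and APAF1 (0.76), each without overlap between the groups. They were picked by p, so nothing is read from the lack of overlap. Of the 46 genes 9 were higher and 5 lower without overlap, and 23.3% of all tested probe sets had no overlap. APAF1, the scaffold on which CASP9 is activated, read 5.85 and 6.48 in DPF+ and 5.56 and 5.26 in DPF- (limma adjusted p = 0.719). With DPF+ cut to 1 array, the APAF1 change was 1.07 if replicate 2 stayed and 0.44 if replicate 1 stayed. Such a fit has no spread for DPF+, so nothing beyond these sizes is read from it. BIRC2 read 6.12 and 6.05 in DPF+ and 6.54 and 6.74 in DPF-, while its other tested probe set had a difference of 0.14. In HG+ against HG- the median was 0.01, and the smallest p belonged to TMBIM6, TRAF3 and TNFRSF1B, at -0.62, 0.33 and 0.22 (fitted for TMBIM6 and TRAF3, each with a group mean under 4). For TMBIM6 1 array made the difference, since HG- replicate 2 read 5.08 and HG- replicate 1 read 3.70, and the change was 0.08 without HG- replicate 2. TRAF3 was 0.17 without HG- replicate 2, and TNFRSF1B 0.01 without it. The difference of the contrasts had its smallest p in BIRC2, APAF1 and BAG5, with log2 differences of -0.51, 0.65 and 0.62, each with a limma adjusted p of 0.999. The other tested BIRC2 probe set had the opposite sign here, with a fitted 0.41.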

How the data were processed

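Expression was measured on 8 arrays, 2 for each of 4 groups taken from the sample titles. The deposited values are log2 levels per probe set that the authors made with GCRMA, per the submitters' processing notes. The GCRMA version, and whether all arrays were normalized together, are not given in the sources used here. Such summaries can compress differences at low levels, and the number of arrays limits the precision.

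From these values 96 control probe sets and 8 probe sets with blank values were left out, and a probe set was tested at a log2 level of at least 4 on at least 2 arrays. The 4 group means were fitted with limma 3.58.1 in R 4.3.3 (eBayes with an intensity trend, two-sided, 4 residual and 3.68 prior degrees of freedom), with Benjamini-Hochberg adjustment across all 12725 tested probe sets and a threshold of 5%. The script was tested on simulated data. Gene symbols came from the array annotation given with the series, and synonyms from the RefSeq gene table. For a gene of the wider list the probe set with the highest mean stands.

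The rule for names took every member, every called gene of the wider list or else the 3 with the smallest p of a contrast, and the 5 probe sets most like the member of widest range. BIRC5 and BIRC7, ZP1, DDX4 and other marker genes, and the genes under the filter were named after their values were seen. The members and lists were chosen with earlier results of these data known. Alternatives were no filter, a filter at 6, median centring, quantile normalization, no trend, a fit to the 4 arrays of 1 source, a replicate block, and each array left out.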

Additional observations from a re-analysis of the deposited data

Results flagged for a closer look

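With the arrays of each source taken as a group of 4, 36 sets of values (18 probe sets of members and called list genes, in DPF and in HG) were examined for a single array far from the rest, and 3 stood out, all of BCL2. Chance marks about 1 in 20 such sets, and probe sets of a gene share their transcript. DPF+ replicate 2 was at 4.46 with S1_at, where the nearest of the other DPF arrays was at 5.54, and at 6.35 with S2_s_at, where the nearest was at 7.50. HG+ replicate 1 was at 6.03 with S2_at, where the nearest of the other HG arrays was at 5.78.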

How the results depend on the processing

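Of 12725 tested probe sets 1588 differed between DPF and HG in limma, 1045 did so without the filter, 549 with the filter at 6, and between 174 (without HG- replicate 2) and 4846 (without DPF+ replicate 2) with an array left out. The called member probe sets were 3 as reported, 0 without the filter, 1 with the filter at 6 (where FAS and BIRC8 are no longer tested), and 0 to 7 with an array left out, and for the 46 other list genes the count of 4 became 0 without the filter and 0 to 15. DPF+ against DPF- had 0 calls, 10 without the filter, and 0 to 1070 with an array left out, the most without DPF+ replicate 1 (members 0 to 3, other list genes 0 to 3), and at an unadjusted p under 5% it had 781. HG+ against HG- and the difference of the contrasts had 0 calls, and 1 each without the filter, none of them a member. The replicate numbers are not said to pair the samples, and same-numbered deviations had a correlation of -0.521 in DPF and -0.194 in HG. With the replicate number as a block DPF against HG had 76 calls, 0 of them members and 0 other list genes. With the numbers crossed, a choice made after seeing the data, that count was 3339 (11 other list genes), and DPF+ against DPF- had 5. Median centring, quantile normalization and the fit without a trend turned no direction of the tested members in the contrasts of groups or sources, nor of the called or smallest-p list genes in their contrast. They were not run for BIRC5, BIRC7, BID, BCL2L10, CYCS or, in DPF against HG, BIRC2. Leaving out an array did. In DPF+ against DPF- the range was -0.055 to 1.20 for ENDOG, -0.84 to 0.29 and -1.26 to 0.04 for BCL2 (S2_at, S2_s_at), -0.31 to 0.025 and -0.14 to 0.55 for MCL1 (a_at, s_at), and -0.19 to 0.01 for CASP8. In HG+ against HG- it was -0.15 to 0.31 for BIRC8, -0.075 to 0.12 and -0.22 to 0.02 for MCL1 (a_at, s_at), -0.34 to 0.16 and -0.03 to 0.27 for BCL2 (S1_at, S2_at), -0.025 to 0.16 for CASP8, -0.26 to 0.15 for CASP9, and -1.31 to 0.075 for TMBIM6. In DPF against HG it was -0.02 to 0.33 for MCL1 (s_at) and -0.47 to 0.087 for BCL2 (S2_at). The cause of these shifts was not tested. FAS and BIRC8 in DPF, CASP9 and BAK1 lie near the log2 level of 4, where changes may be compressed, which was not tested.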

Other observations

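Some survival and death genes of the wider list had a high level on all arrays. BCL2L10, a survival gene of the BCL2 family, lay at 11.29 and 11.32 in DPF+, 11.23 and 11.05 in DPF-, 11.17 and 11.30 in HG+, and 11.13 and 11.20 in HG-. CYCS, which encodes cytochrome c, lay at 10.43 and 10.84 in DPF+, 10.66 and 10.52 in DPF-, 10.78 and 10.93 in HG+, and 10.93 and 10.84 in HG-. Others varied more. BID, which relays the CASP8 signal to the mitochondrion, was at 7.52 and 7.91 in DPF+, 8.05 and 6.99 in DPF-, 8.13 and 8.32 in HG+, and 8.27 and 8.08 in HG-. BIRC5 was at 6.63 and 7.77 in DPF+, 7.23 and 6.57 in DPF-, 7.59 and 7.82 in HG+, and 7.77 and 7.52 in HG-, so that DPF+ replicate 1 and DPF- replicate 2 were the lower arrays, as they were for ENDOG. These genes were chosen after their values were seen.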
